A study of Mus musculus with 6 samples.

Results

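The Wnt pathway genes described here were the protein-coding rows of the count table named as Wnt ligands, Frizzled receptors, secreted Frizzled-related proteins, R-spondins or Dickkopf proteins, together with Lrp5, Lrp6, Lgr4, Lgr5, Lgr6, Axin2, Znrf3, Rnf43, Procr and Tcf7. The rule used gene names only, though it was set with earlier results of these data known, and 51 of the 55487 genes counted met it. Of these, 40 had enough counts to be tested, among 17165 genes in all. Mammary epithelial cells (MECs) were taken from 10-week-old virgin female BALB/c mice, 3 wild-type and 3 IL-21isoTg, with 1 poly(A)-selected library per mouse. IL-21isoTg mice carry a transgene for an isoform of interleukin-21 that stays bound to the membrane, and the labels place its expression specifically in T cells. The MECs were what remained of digested mammary tissue after cells with CD45, CD31 or CD140a (markers of leukocytes, endothelium and fibroblasts) had been removed with magnetic beads. The stage of the estrous cycle was randomized, so it was not the same in every mouse by design. In bulk libraries such as these, fewer cells of a type and less RNA per cell cannot be told apart.

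Wnt ligands are secreted proteins that bind a Frizzled receptor together with the co-receptor Lrp5 or Lrp6. In the canonical branch, binding stops the destruction complex from degrading β-catenin, which then acts with Tcf and Lef factors in the nucleus, and Axin2, Rnf43 and Znrf3 are switched on as negative feedback. R-spondins bind Lgr receptors and take Rnf43 and Znrf3 off the cell surface, which leaves more Frizzled in place. Many secreted Frizzled-related proteins and Dickkopf proteins can block ligands or co-receptors, though not every member need do so. In the mammary gland, progesterone induces Wnt4 and Rspo1 in luminal cells, and basal cells are among the cells that respond.

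The gene starts of the results described below can be seen in their upstream sequence. Windows of 250 bases before the annotated start, from RefSeq on GRCm38.p6, were matched by symbol for 33 of the 51 genes (38 windows). They are shown for Axin2, the usual reporter of canonical Wnt signaling, and for Sfrp5 and Rspo1, the only members with an unadjusted p under 0.05. Also shown is the first of 2 windows of Wnt11, which holds a Tcf and Lef motif. Each is written 5′ to 3′ on the strand of its gene, and capitals mark a match to CTTTGAT or CTTTGAA on either strand.
Axin2, chr11:108920099-108920348, plus strand: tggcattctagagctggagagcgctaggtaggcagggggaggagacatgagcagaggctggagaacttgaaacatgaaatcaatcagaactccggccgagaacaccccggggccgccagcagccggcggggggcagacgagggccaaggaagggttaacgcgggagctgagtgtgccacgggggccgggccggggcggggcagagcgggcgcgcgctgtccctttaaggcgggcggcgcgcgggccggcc
Rspo1, chr4:124986180-124986429, plus strand: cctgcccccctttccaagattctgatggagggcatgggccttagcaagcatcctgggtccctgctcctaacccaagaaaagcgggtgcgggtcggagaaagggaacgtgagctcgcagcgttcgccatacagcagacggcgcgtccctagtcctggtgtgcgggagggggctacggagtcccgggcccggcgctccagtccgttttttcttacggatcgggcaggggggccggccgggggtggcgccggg
Sfrp5, chr19:42202253-42202502, minus strand: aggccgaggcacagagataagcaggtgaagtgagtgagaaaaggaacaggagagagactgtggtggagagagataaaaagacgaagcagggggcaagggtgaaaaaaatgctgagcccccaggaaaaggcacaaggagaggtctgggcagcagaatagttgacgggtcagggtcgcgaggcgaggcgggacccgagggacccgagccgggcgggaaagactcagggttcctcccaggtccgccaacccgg
Wnt11, chr7:98834862-98835111, plus strand: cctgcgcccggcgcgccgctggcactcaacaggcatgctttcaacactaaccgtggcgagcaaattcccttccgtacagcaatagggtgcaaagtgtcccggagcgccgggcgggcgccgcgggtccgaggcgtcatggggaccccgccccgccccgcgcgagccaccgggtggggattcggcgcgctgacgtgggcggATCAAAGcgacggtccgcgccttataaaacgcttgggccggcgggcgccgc
The match in the Wnt11 window shown is CTTTGAT read on the opposite strand and lies 51 bases before the start. Window 2 of Wnt11, chr7:98838595-98838844, held neither motif and had 16 CpG and a GC content of 56.8%. In all, 3 of the 38 windows held either motif (Wnt11, Wnt5b and Dkk1), against 7.48% of the 32851 windows of all genes. CTTTGAT alone was in 3.21% of all windows and CTTTGAA in 4.46%. The windows of Axin2, Rspo1 and Sfrp5 held neither string of letters in these 250 bases, which says nothing about binding elsewhere. All 4 windows were rich in CpG, with 24 CpG in Axin2, 22 in Rspo1, 13 in Sfrp5 and 37 in Wnt11, against a median of 6 over all windows. Their GC content was 69.2%, 66.8%, 59.6% and 70.8% in the same order, against a median of 52.4%.

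Total counts per library were between 15902886 and 25719244. The floor was set at 3 counts, or 0.112 to 0.280 CPM (the usual depth-scaled count, here after TMM scaling of library sizes), and it reflects counting error alone. Il21, which the transgene encodes, was counted 0, 0 and 37 times in wild-type mice 1 to 3 and 795, 216 and 131 times in IL-21isoTg mice 1 to 3, so that wild-type mouse 3 had some. The luminal markers Epcam, Krt8, Krt18, Krt19, Cldn3 and Cldn7 summed to 5013 to 6683 CPM in wild-type and 4532 to 7747 CPM in IL-21isoTg mice. A pair of libraries stood apart. Wild-type mouse 1 had the lowest sum of hormone-sensing luminal markers (Esr1, Pgr, Prlr, Foxa1, Prom1, Ly6a), 403 CPM against 717 to 1430 CPM in the other mice. In IL-21isoTg mouse 3, a list of salivary gland genes took 40.1% of the counts, against 4.83% to 22.5% in the others. Milk protein genes summed to 523 to 1733 CPM in wild-type and 8818 to 20366 CPM in IL-21isoTg mice. Fibroblast markers, with 6 of 7 higher and 3 of them at an unadjusted p under 0.05, summed to 1952 to 3449 CPM in wild-type and 4315 to 4975 CPM in IL-21isoTg mice (exact permutation test, two-sided, p = 0.1, the smallest that 3 mice against 3 can give). Pdgfra, which encodes the depleted CD140a, was still present at 15.8 to 60.4 CPM.

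The MEC libraries of both genotypes held transcripts of a broad set of Wnt ligands and of all 10 Frizzled receptors. Which cells of the preparation these came from was not tested. To compare genes with each other, CPM was divided by the length of the merged exons. The ligand order by mean CPM per kb was Wnt5b at 29.0, Wnt4 at 14.7, Wnt5a at 11.4 and Wnt7b at 7.58, followed by Wnt10a at 3.72 and Wnt11 at 3.51. The ranges over the 6 mice of these neighbors overlapped. Wnt4 spanned 8.63 to 20.2 CPM per kb, Wnt5a 2.28 to 20.7 and Wnt7b 3.06 to 10.6. Wnt5b at 19.5 to 37.9 overlapped Wnt4 only at the edge. Within every mouse, Wnt5b was above Wnt4 and Wnt4 above Wnt7b, whereas Wnt5a was slightly above Wnt4 in wild-type mouse 2. Below them were Wnt6 at 1.46, Wnt2 at 0.714, Wnt9a at 0.688, Wnt10b at 0.367, Wnt2b at 0.218 and Wnt3 at 0.164 CPM per kb. Fzd7 led the Frizzled receptors at 14.4 CPM per kb, with Fzd6 at 6.58 and Fzd1 at 6.08 behind it, and all 10 receptors passed the filter, down to Fzd3 at 0.856. Of the co-receptors, Lrp5 stood at 21.9 and Lrp6 at 7.48 CPM per kb, and their ranges of 14.3 to 33.1 and 6.19 to 8.46 did not overlap. Lgr4 and Lgr6 were similar in level at 7.12 and 5.90 CPM per kb, whereas Lgr5, a marker of stem cells in several epithelia, was at 0.347.

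**Figure D1:**
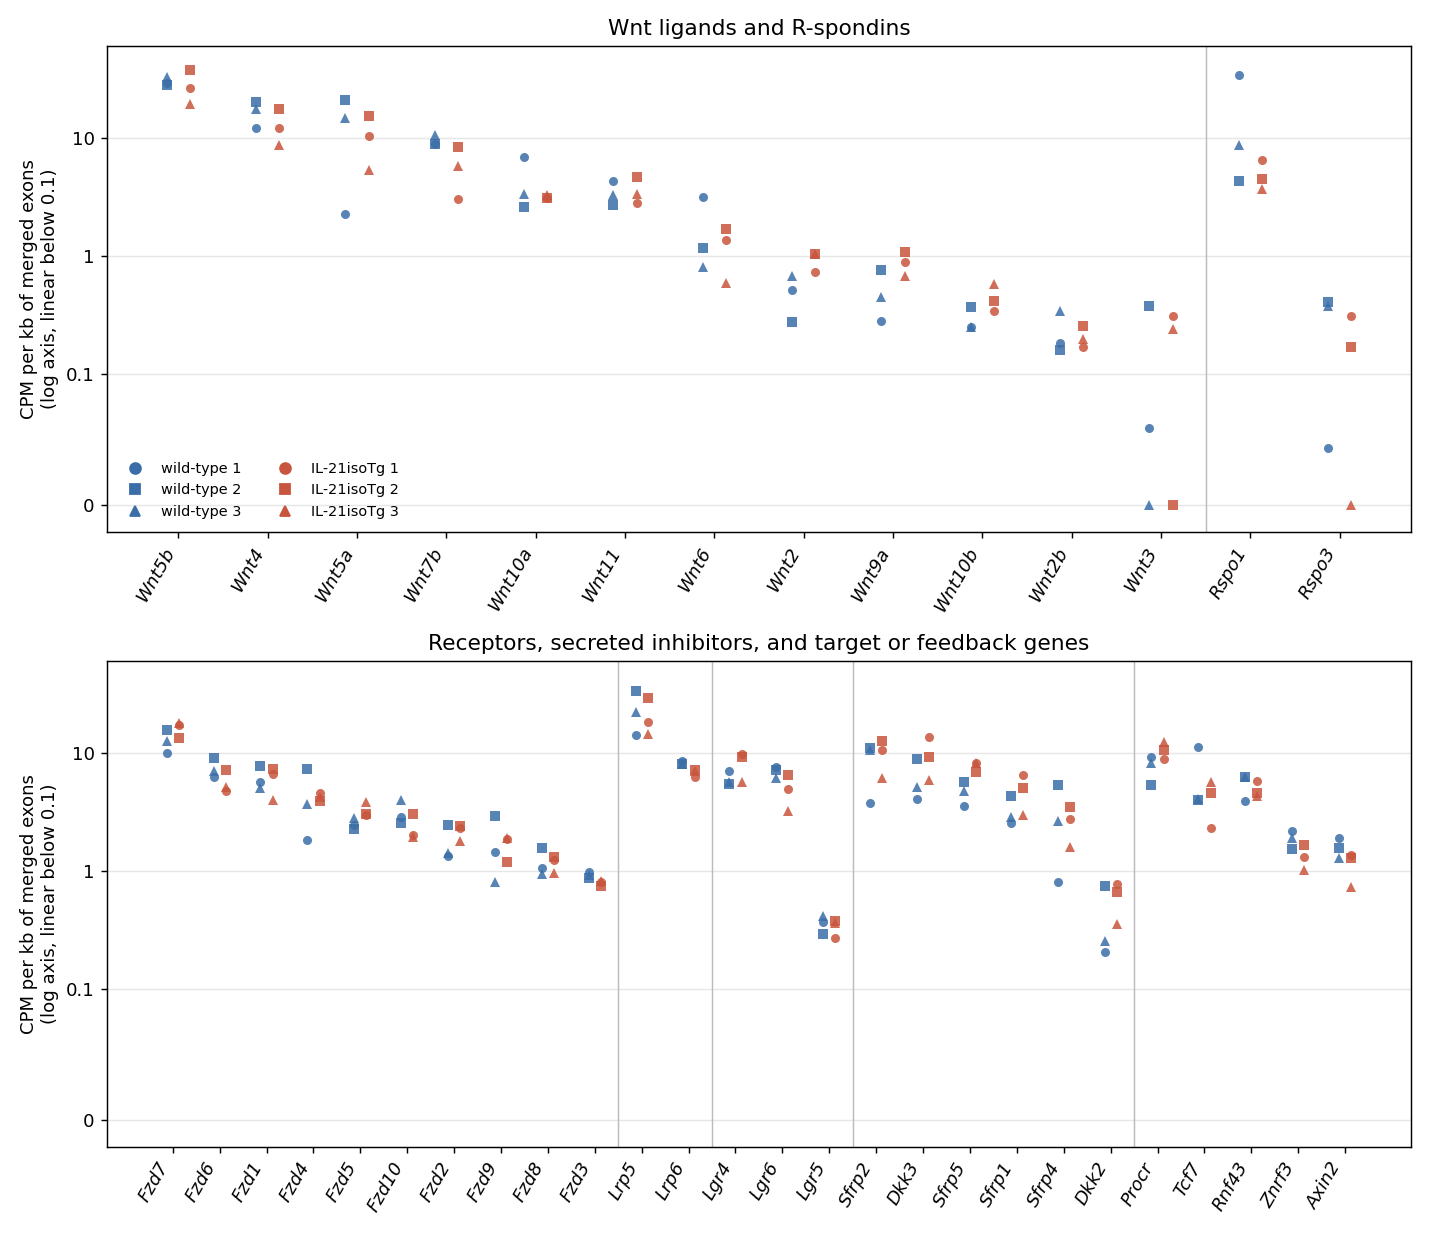
Level of each of the 40 Wnt pathway genes tested, in CPM per kb of merged exons on a log axis that turns linear below 0.1, with 1 point per mouse (blue, wild-type; red, IL-21isoTg; circle, square and triangle, mouse 1, 2 and 3). Wnt5b and Lrp5 lead at 29.0 and 21.9 CPM per kb on average, and the wild-type circle stands far from the other mice for Rspo1 and Wnt5a.

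The 11 members that did not pass the filter were the ligands Wnt1, Wnt3a, Wnt7a, Wnt8a, Wnt8b, Wnt9b and Wnt16, the R-spondins Rspo2 and Rspo4, and the inhibitors Dkk1 and Dkk4. Wnt8b and Dkk4 had no count in any mouse. Wnt7a had 0 counts in each wild-type mouse and 3, 4 and 3 counts in the IL-21isoTg mice, which is at or just above the floor. Wnt9b reached 23 counts in wild-type mouse 1 and Rspo2 reached 20 in IL-21isoTg mouse 2, with 10 or fewer in every other library. Wnt3, 24.3 kb from Wnt9b on chromosome 11 of GRCm38, passed with counts of 4, 24 and 0 in wild-type and 23, 0 and 8 in IL-21isoTg mice, which no genotype could be read from.

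The question of the comparison was whether the transgene in T cells goes with altered expression in MECs. No Wnt pathway gene passed an adjusted p of 0.05 by the quasi-likelihood test of edgeR after Benjamini-Hochberg adjustment, and 0% of all genes tested did. The lowest adjusted p among the members was 0.809. At an unadjusted p under 0.05, 1 member was higher in IL-21isoTg MECs (2.5%, against 3.19% of all genes tested) and 1 was lower (2.5%, against 2.63%). DESeq2 called 72 genes of 17595 with an adjusted p, none of them a Wnt pathway gene, and had 3 of 49 members at an unadjusted p under 0.05 (6.12%, against 4.37% of the 28778 genes with a p-value). With limma-voom 0 genes were called and 2 members were under 0.05 unadjusted (5%, against 5.54% of all genes). Genotypes did not overlap for 3 members that were higher (7.5%, against 5.54% of all genes) and 3 that were lower (7.5%, against 6.54%). These shares were close to those of all genes. The log2 fold change was positive for 15 members and negative for 25, with a median of -0.10, beside a median of -0.02 over all genes. That median turned positive, to 0.17, without wild-type mouse 2 and to 0.03 without IL-21isoTg mouse 3.

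**Figure D2:**
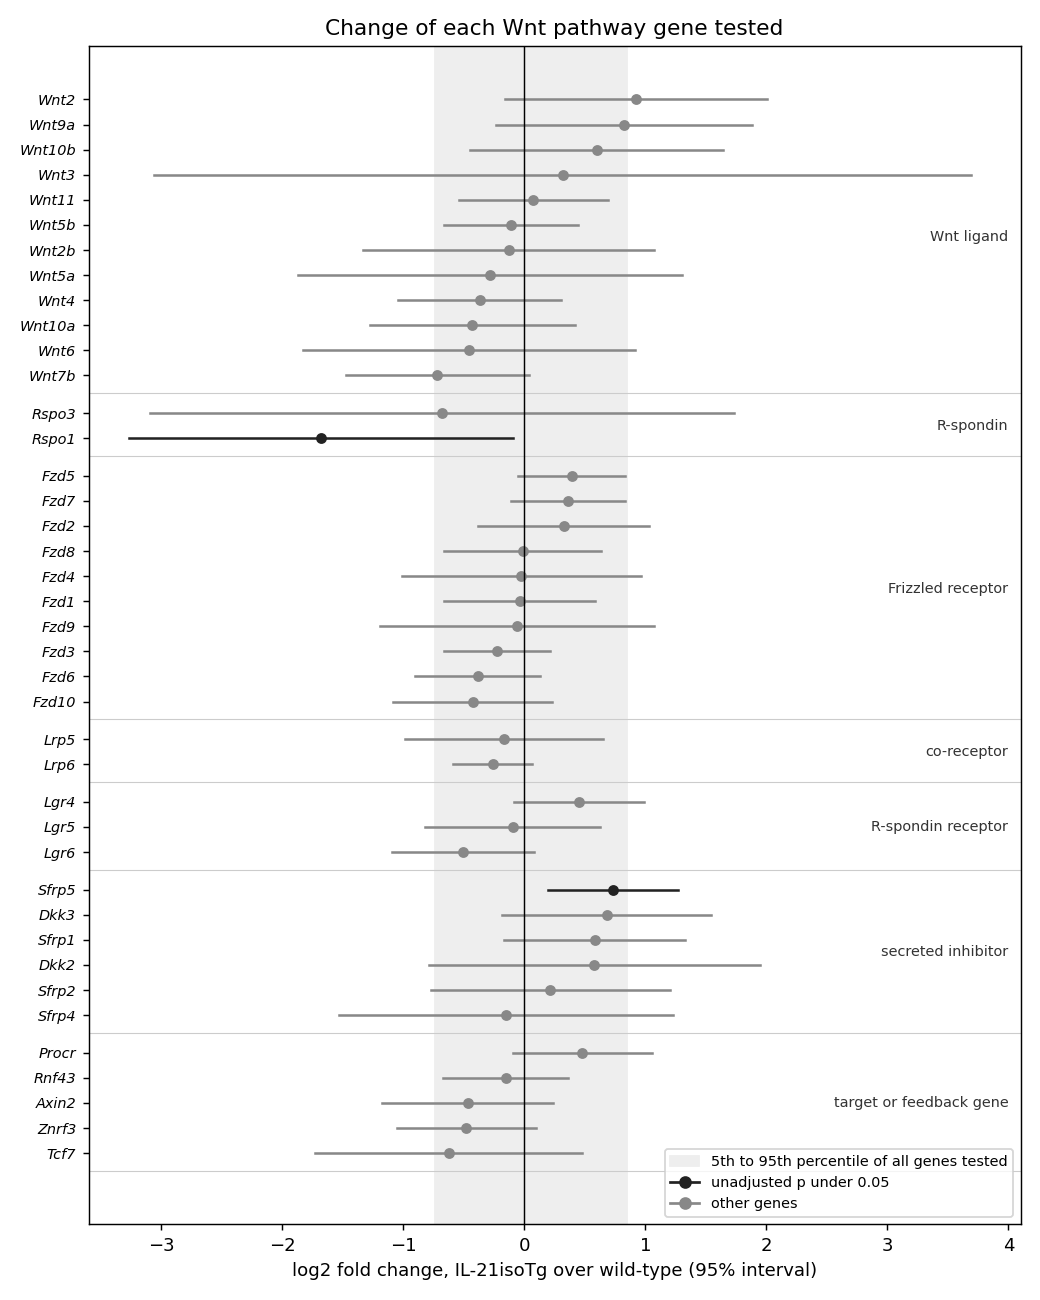
Log2 fold change (IL-21isoTg over wild-type, with its 95% interval) of the 40 Wnt pathway genes tested, grouped by role; black marks an unadjusted p under 0.05 and the grey band the 5th to 95th percentile of all genes, -0.74 to 0.85. The intervals of Sfrp5 and Rspo1 exclude 0, and 5 of 6 secreted inhibitors (Sfrp and Dkk genes) lie to the right of 0.

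Among the ligands, 5 of 12 tested had a positive and 7 a negative log2 fold change, and no unadjusted p was under 0.05. Wnt2, a ligand known mainly from stroma, had 1.17, 0.625 and 1.53 CPM in wild-type and 1.66, 2.35 and 2.33 CPM in IL-21isoTg MECs. Every IL-21isoTg mouse was above every wild-type mouse, though all levels were low. This gave a log2 fold change of 0.92 (95% interval -0.16 to 2.00, unadjusted p = 0.0857, adjusted p = 0.809). The fibroblast marker sum given above also did not overlap between genotypes, and its part in the Wnt2 values was not tested. Wnt7b (chr15:85535437-85582473, minus strand), a ligand made by the luminal epithelium, was the ligand with groups apart in the other direction. Its level was 43.6, 43.3 and 51.8 CPM in wild-type and 14.97, 40.8 and 28.4 CPM in IL-21isoTg MECs. The wild-type mice lay close together, while the IL-21isoTg mice were spread, and mouse 2 of that group was just below the wild-type range. For Wnt7b the log2 fold change was -0.72 (95% interval -1.48 to 0.03, unadjusted p = 0.0589), with -1.10 to -0.41 over the fits that left out 1 mouse. The unadjusted p of Wnt7b was under 0.05 in 5 of 17 alternatives. An antisense gene, AU022754, shares 324 bp (6.61%) of the Wnt7b exons, and whether reads were counted by strand is not given in the sources used here.

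The most abundant ligands overlapped between genotypes. Wnt4, the progesterone-induced ligand of luminal cells that drives side branching, had 50.4, 84.6 and 73.5 CPM in wild-type and 50.8, 74.0 and 36.2 CPM in IL-21isoTg MECs. Its lowest and highest values came from different genotypes, but the ranges overlapped. Its log2 fold change was -0.37 (95% interval -1.04 to 0.30). Wnt5b, which like Wnt5a signals mostly without β-catenin, had 78.0, 74.3 and 87.3 CPM in wild-type and 69.7, 100.5 and 51.7 CPM in IL-21isoTg MECs, with both extremes in the transgenic group. Its log2 fold change was -0.11 (95% interval -0.66 to 0.45). Wnt5a, a restraint on ductal growth in the gland, had 17.9, 162 and 115 CPM in wild-type and 80.8, 119 and 42.2 CPM in IL-21isoTg MECs. Here wild-type mouse 1 was far below all others, so the spread lay within the wild-type group. The log2 fold change was -0.28 (95% interval -1.87 to 1.30), and it became -0.77 without wild-type mouse 1 and 0.28 without wild-type mouse 2.

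Wnt6 and Wnt10a are adjacent genes on chromosome 1 of GRCm38, in the same direction and 6.19 kb apart. Wnt10a, a canonical ligand, had 17.0, 6.39 and 8.19 CPM in wild-type and 7.65, 7.67 and 8.11 CPM in IL-21isoTg MECs. Wnt6 had 6.90, 2.55 and 1.75 CPM in wild-type and 2.99, 3.72 and 1.31 CPM in IL-21isoTg MECs. Both were highest in wild-type mouse 1, and the remaining mice did not separate by genotype. Their log2 fold changes of -0.43 and -0.46 turned to 0.11 and 0.35 without that mouse. Wnt11, a ligand of the non-canonical branch, had 17.7, 11.2 and 13.5 CPM in wild-type and 11.6, 19.2 and 13.8 CPM in IL-21isoTg MECs, which overlapped (log2 fold change 0.07, 95% interval -0.54 to 0.69). Wnt2b had 0.767, 0.673 and 1.44 CPM in wild-type and 0.707, 1.08 and 0.839 CPM in IL-21isoTg MECs and overlapped as well (log2 fold change -0.13, 95% interval -1.33 to 1.07). The other ligands tested, Wnt9a, Wnt10b and Wnt3, had log2 fold changes of 0.82, 0.60 and 0.32, with an unadjusted p between 0.11 and 0.833.

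Rspo1 (chr4:124986430-125009099, plus strand), the R-spondin secreted by luminal cells, had the largest fold change of the members. It had 66.3, 8.41 and 16.8 CPM in wild-type and 12.6, 8.75 and 7.09 CPM in IL-21isoTg MECs. Wild-type mouse 1 was 3.87-fold above the next mouse, and the other 5 mice overlapped. The mean was 30.5 ± 31.3 CPM (SD, n = 3) in wild-type and 9.46 ± 2.80 CPM in IL-21isoTg MECs (SD, n = 3), and the log2 fold change was -1.68 (95% interval -3.27 to -0.10, unadjusted p = 0.0401, adjusted p = 0.809). Without wild-type mouse 1 the log2 fold change was -0.39, and an unadjusted p under 0.05 was reached in 7 of 17 alternative analyses. Wild-type mouse 1, highest for Rspo1, was also the mouse with the lowest hormone-sensing marker sum, and whether these are linked was not tested. Rspo3, the only other R-spondin tested, had counts of 3, 26 and 26 in wild-type and 23, 14 and 0 in IL-21isoTg MECs.

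The Frizzled receptors centered on no difference, with a median log2 fold change of -0.03 over 10 genes (3 positive, 7 negative). Fzd5 (chr1:64730558-64737751, minus strand) had 16.9, 15.6 and 19.5 CPM in wild-type and 20.5, 21.1 and 26.7 CPM in IL-21isoTg MECs. All transgenic values were above the wild-type values, but by a narrow margin. For Fzd5 the log2 fold change was 0.39 (95% interval -0.05 to 0.83, unadjusted p = 0.075). Gm38058, on the other strand, shares 1233 bp (17.8%) of the Fzd5 exons, so part of these reads could belong to it. Fzd3, better known for planar polarity and axon guidance, had 12.5, 11.1 and 11.9 CPM in wild-type and 10.3, 9.53 and 10.4 CPM in IL-21isoTg MECs. It was lower in every transgenic mouse, with a log2 fold change of only -0.23 (95% interval -0.67 to 0.21, unadjusted p = 0.261).

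The remaining receptors overlapped between genotypes. Fzd7, the most abundant and a receptor of basal cells and their progenitors, had 45.0, 70.1 and 57.0 CPM in wild-type and 78.2, 61.0 and 81.5 CPM in IL-21isoTg MECs (log2 fold change 0.36, 95% interval -0.11 to 0.83). IL-21isoTg mouse 2 fell within the wild-type range and the other 2 above it. Fzd6, a receptor of the planar polarity branch, had 30.2, 43.9 and 33.7 CPM in wild-type and 22.8, 34.7 and 24.9 CPM in IL-21isoTg MECs (log2 fold change -0.39, 95% interval -0.90 to 0.13). Fzd1 had 23.7, 32.7 and 21.3 CPM in wild-type and 27.8, 30.7 and 16.8 CPM in IL-21isoTg MECs. Fzd2 had 4.92, 8.98 and 5.22 CPM in wild-type and 8.48, 8.75 and 6.62 CPM in IL-21isoTg MECs. Their log2 fold changes were -0.04 (95% interval -0.66 to 0.58) and 0.32 (95% interval -0.38 to 1.03), and neither pair of groups was apart. Fzd4, which is prominent in endothelium, ranged from 12.4 to 49.4 CPM, both extremes being wild-type mice. Endothelial markers summed to 55.7 to 149 CPM in wild-type and 95.2 to 248 CPM in IL-21isoTg mice, and their part in the Fzd4 values was not tested.

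Of the co-receptors, Lrp6 was lower in each IL-21isoTg mouse. Its level was 116, 110 and 109 CPM in wild-type and 84.6, 98.3 and 96.2 CPM in IL-21isoTg MECs, a narrow spread on both sides. The log2 fold change was -0.26 (95% interval -0.59 to 0.06, unadjusted p = 0.101, adjusted p = 0.809), and it stayed between -0.30 and -0.20 when any 1 mouse was left out. Lrp5, by contrast, varied widely within each genotype, with 139, 322 and 214 CPM in wild-type and 178, 282 and 141 CPM in IL-21isoTg MECs. Its log2 fold change was -0.17 (95% interval -0.99 to 0.65). Lrp6 and Fzd3 have long transcripts, with merged exons of 13.7 and 12.8 kb. Over all genes, the share lower in every IL-21isoTg mouse was 4.05% for merged exons under 2 kb and 11.2% for those over 10 kb, and the part of length in these members was not tested.

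The R-spondin receptors did not move as a group. Lgr4, the broadly expressed member that mammary stem cells require, had 41.4, 31.9 and 33.1 CPM in wild-type and 57.4, 54.3 and 33.1 CPM in IL-21isoTg MECs. In the transgenic group mice 1 and 2 were above all wild-type mice and mouse 3 was within their range. For Lgr4 the log2 fold change was 0.45 (95% interval -0.09 to 0.99), and 0.66 without IL-21isoTg mouse 3. Lgr6, found in subsets of luminal and basal progenitors, had 51.8, 48.5 and 42.2 CPM in wild-type and 33.6, 44.6 and 21.8 CPM in IL-21isoTg MECs. Its transgenic mice lay lower, with mouse 2 inside the wild-type range (log2 fold change -0.51, 95% interval -1.09 to 0.08). Lgr5 had 3.79, 3.03 and 4.23 CPM in wild-type and 2.79, 3.83 and 3.73 CPM in IL-21isoTg MECs, overlapping throughout (log2 fold change -0.10, 95% interval -0.82 to 0.63).

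**Figure D3:**
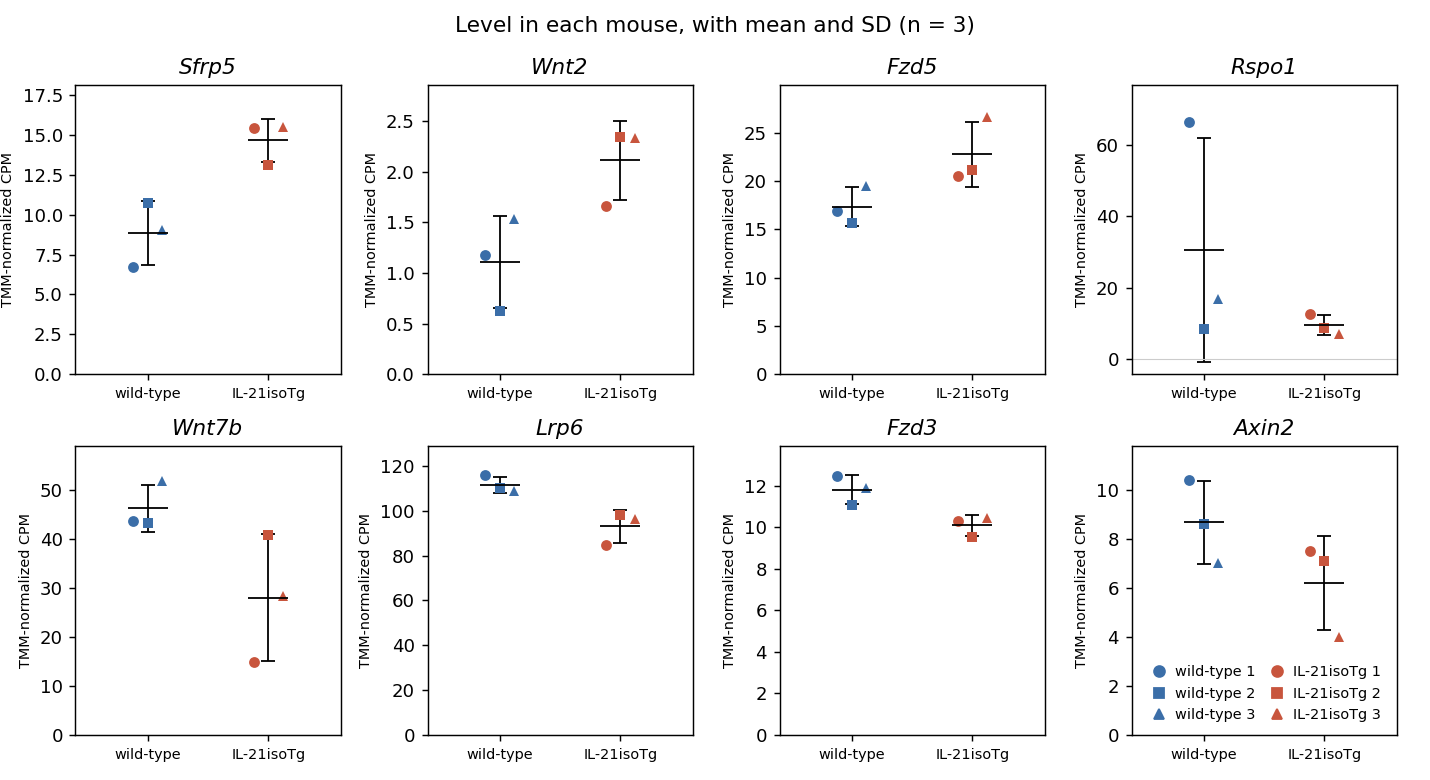
TMM-normalized CPM in each mouse (points), with the mean and SD of 3 mice per genotype, on linear axes that include 0, for the 6 members whose genotypes did not overlap and for Rspo1 and Axin2. Sfrp5 lies at 6.72 to 10.7 CPM in wild-type and 13.1 to 15.5 CPM in IL-21isoTg mice, whereas for Rspo1 a single wild-type mouse lies at 66.3 CPM and the other mice at 7.09 to 16.8 CPM.

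The secreted inhibitors of the rule, grouped by the family names Sfrp and Dkk, had positive fold changes in 5 of 6 genes tested. Their median log2 fold change was 0.58 against -0.02 over all genes, of which 8216 of 17165 were positive. Wif1 and Frzb, extracellular modulators of the separate list described below, were outside this group. Their log2 fold changes were -1.40 (95% interval -3.08 to 0.28) and -0.48 (95% interval -2.49 to 1.53). Of the 8 extracellular modulators tested in that list, 5 were positive and 3 negative. Sfrp5 (chr19:42197971-42202252, minus strand), a secreted Frizzled-related protein that binds Wnt5a among others, was the only member whose unadjusted p stayed under 0.05 in all 17 alternative analyses. It had 6.72, 10.7 and 9.04 CPM in wild-type and 15.4, 13.1 and 15.5 CPM in IL-21isoTg MECs. Every transgenic mouse was above every wild-type mouse. The means were 8.83 ± 2.01 and 14.7 ± 1.36 CPM (SD, n = 3 each), and the log2 fold change was 0.73 (95% interval 0.19 to 1.27, unadjusted p = 0.0142). Its adjusted p over all genes was 0.809, and no alternative brought it below 0.473. Leaving out 1 mouse at a time kept the log2 fold change between 0.58 and 0.90.

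Sfrp1, which is lost in many breast cancers, had 11.1, 18.7 and 12.6 CPM in wild-type and 28.2, 22.1 and 13.0 CPM in IL-21isoTg MECs. Dkk3, a divergent member of the Dickkopf family, had 13.7, 29.5 and 17.2 CPM in wild-type and 45.7, 31.0 and 19.7 CPM in IL-21isoTg MECs. Dkk2 had 0.767, 2.79 and 0.945 CPM in wild-type and 2.87, 2.46 and 1.31 CPM in IL-21isoTg MECs. For all 3 genes, wild-type mouse 2 was the highest of its group and IL-21isoTg mouse 3 the lowest of its own, and the remaining wild-type mice were below every transgenic mouse. Their log2 fold changes were 0.58 (95% interval -0.17 to 1.33), 0.68 (95% interval -0.18 to 1.54) and 0.58 (95% interval -0.79 to 1.95). Without wild-type mouse 2 they were highest, at 0.84 for Sfrp1, 1.06 for Dkk3 and 1.38 for Dkk2. They were lowest without IL-21isoTg mouse 1 for Sfrp1 (0.32) and Dkk3 (0.34), and without wild-type mouse 1 for Dkk2 (0.28). Sfrp2, a product of fibroblasts, had 8.03, 23.6 and 22.9 CPM in wild-type and 22.8, 27.1 and 13.1 CPM in IL-21isoTg MECs (log2 fold change 0.21, 95% interval -0.78 to 1.20). It was lowest in wild-type mouse 1, and an antisense gene, Gm26771, shares 16.1% of its exons. Sfrp4 ranged from 3.38 to 22.1 CPM within the wild-type group alone (log2 fold change -0.15). Basal markers summed to 1394 to 1889 CPM in wild-type and 1567 to 2826 CPM in IL-21isoTg mice (6 of 7 markers higher), beside the fibroblast sums given above, and the part of either in the inhibitor values was not tested.

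Of the 5 targets and feedback genes among the members, 4 were negative, with a median log2 fold change of -0.47. Of all genes tested, 8949 of 17165 were negative. None of the 5 had an unadjusted p under 0.05, and each interval included 0. In the separate list described below, 4 of the 10 targets tested were positive and 6 negative. Axin2 (chr11:108920349-108950783, plus strand), whose upstream window is printed above, had 10.4, 8.60 and 7.02 CPM in wild-type and 7.53, 7.11 and 4.01 CPM in IL-21isoTg MECs. Wild-type mouse 3 fell below 2 of the transgenic mice, so the groups overlapped. The log2 fold change was -0.47 (95% interval -1.18 to 0.24, unadjusted p = 0.165). IL-21isoTg mouse 3, the lowest, was the library with the largest salivary share. With the salivary level (log2 of the summed CPM of those genes) as a covariate, the log2 fold change was -0.44. Without that mouse it was -0.24, without wild-type mouse 1 it was -0.30, and without both it was -0.09. Znrf3, a ubiquitin ligase that removes Frizzled from the surface, had 17.1, 12.1 and 14.98 CPM in wild-type and 10.3, 13.1 and 8.11 CPM in IL-21isoTg MECs (log2 fold change -0.48, 95% interval -1.05 to 0.09). Rnf43, its homolog, had 25.8, 40.6 and 40.8 CPM in wild-type and 38.1, 29.8 and 28.4 CPM in IL-21isoTg MECs (log2 fold change -0.15, 95% interval -0.67 to 0.36). Neither gene separated the genotypes.

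Tcf7, a nuclear partner of β-catenin that is also a T cell gene, had 29.1, 10.5 and 10.7 CPM in wild-type and 6.11, 11.9 and 14.7 CPM in IL-21isoTg MECs. Wild-type mouse 1 was again the outlying value, and without it the log2 fold change of -0.63 (95% interval -1.73 to 0.48) became 0.05. Leukocyte markers summed to 6.77 to 17.0 CPM in wild-type and 11.9 to 20.8 CPM in IL-21isoTg mice, and their part in the Tcf7 values was not tested. Procr, the protein C receptor, marks a basal population with stem cell properties and also endothelium, and it was the only gene of this group with a positive log2 fold change, 0.48 (95% interval -0.10 to 1.06). It had 18.8, 10.8 and 16.6 CPM in wild-type and 18.002, 21.5 and 25.0 CPM in IL-21isoTg MECs, overlapping only between wild-type mouse 1 and IL-21isoTg mouse 1. The endothelial sums given above moved in the same direction, with all 5 markers higher and 2 of them at an unadjusted p under 0.05, and their part in the Procr values was not tested.

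Much of the spread lay between mice of 1 genotype. Wild-type mouse 1 was more than 1 log2 unit beyond all other mice in 3 of the 40 members (7.5%, against 3.04% of all genes tested), above them for Rspo1 and Wnt10a and below them for Wnt5a. No other mouse stood that far out for any member. Wild-type mouse 2 had the highest value of the 6 mice in 12 members (30%, against 15.1% of all genes) and wild-type mouse 1 the lowest in 13 (32.5%, against 24.2%). IL-21isoTg mouse 3 was lowest in 10 (25%, against 25.2%). Leaving out wild-type mouse 2 raised the members with every transgenic mouse above the wild-type mice to 11 (27.5%, against 10.7% of all genes in that fit) and those at an unadjusted p under 0.05 and higher to 6 (15%, against 3.78%). Leaving out both libraries that stood apart, a choice made after seeing the data, gave 9 members higher without overlap (22.5%, against 19.6% of all genes) and 5 lower (12.5%, against 20.7%).

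**Figure D4:**
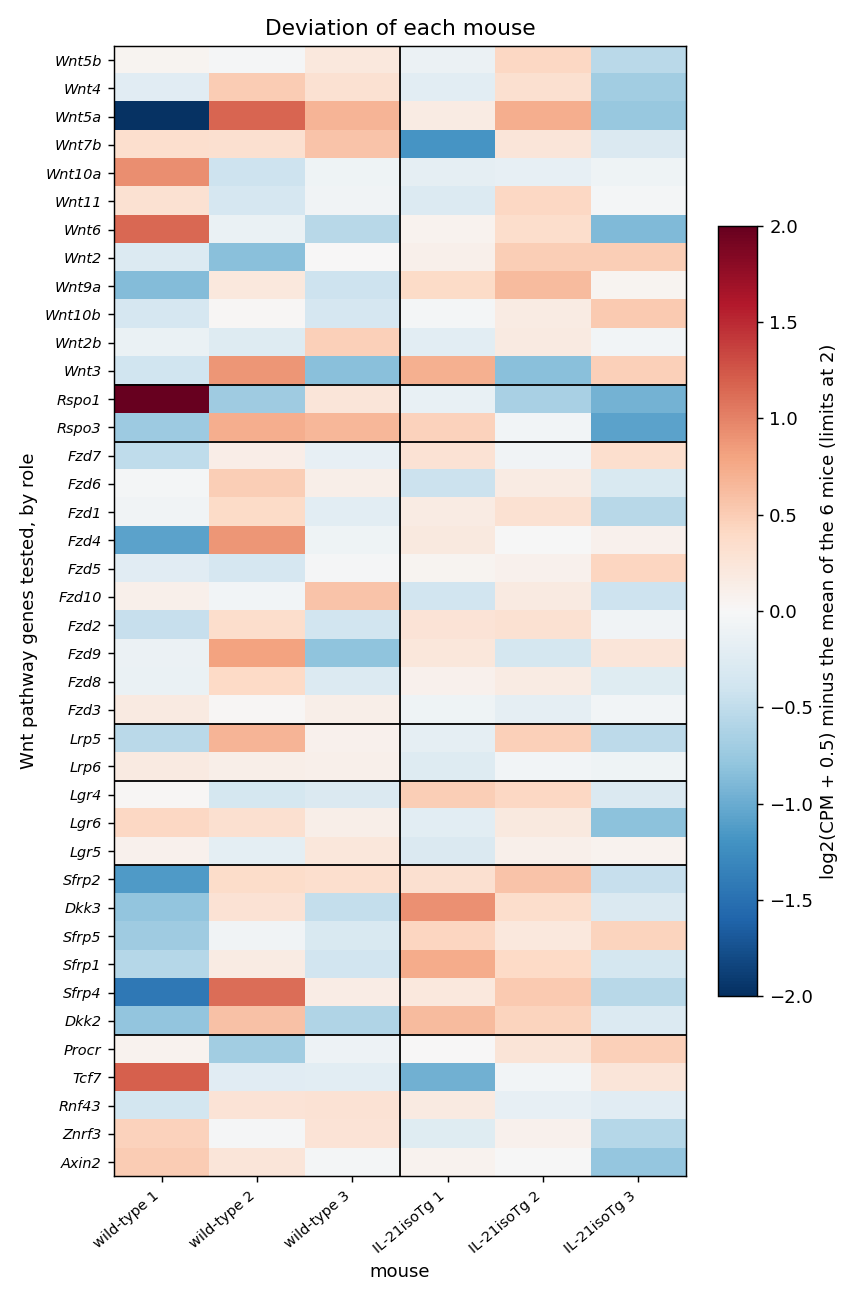
Log2(CPM + 0.5) of each mouse minus the mean of the 6 mice, for the 40 Wnt pathway genes tested, with roles separated by horizontal lines and genotypes by a vertical line; red is above and blue below the mean, and colors stop at 2. The darkest cells are in wild-type mouse 1, for Rspo1 above and Wnt5a below the mean.

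Other genes of the pathway were described from a separate list of 63, of which 58 were tested. Of these, 20 had a positive and 38 a negative log2 fold change, with a median of -0.09, and none passed the adjusted threshold by edgeR's quasi-likelihood test. At an unadjusted p under 0.05, 0 were higher (against 3.19% of all genes tested) and 4 were lower (6.9%, against 2.63%). Groups did not overlap for 1 higher gene, Myc (1.72%, against 5.54% of all genes), and for 6 lower genes (10.3%, against 6.54%). The lower genes were Cthrc1, Tnks, Tnks2, Usp34, Ctnnb1 and Tnfrsf19. Myc, in the target group of the list, had 106, 104 and 120 CPM in wild-type and 139, 141 and 122 CPM in IL-21isoTg MECs. Its log2 fold change was 0.28 (95% interval -0.06 to 0.63). Tnfrsf19, a β-catenin target also called Troy, had the lowest p of the list. It had 17.1, 8.60 and 7.65 CPM in wild-type and 4.20, 4.76 and 3.26 CPM in IL-21isoTg MECs, with all transgenic mice below all wild-type mice. For Tnfrsf19 the log2 fold change was -1.44 (95% interval -2.28 to -0.60, unadjusted p = 0.00428, adjusted p = 0.757), and the unadjusted p was under 0.05 in all 17 alternatives, in which the lowest adjusted p was 0.0676. Wild-type mouse 1 was the highest here too, and the log2 fold change stayed between -1.65 and -0.97 when 1 mouse was left out.

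Ccnd1, the gene of cyclin D1 and a target needed for alveolar growth, had 171, 269 and 210 CPM in wild-type and 116, 191 and 89.4 CPM in IL-21isoTg MECs. The groups overlapped through wild-type mouse 1 and IL-21isoTg mouse 2, and the log2 fold change was -0.71 (unadjusted p = 0.0458). Cthrc1, a secreted protein that favors Wnt binding to non-canonical receptor complexes, had 5.05, 9.61 and 5.98 CPM in wild-type and 3.74, 4.54 and 2.70 CPM in IL-21isoTg MECs (log2 fold change -0.90, unadjusted p = 0.0335). Tnks, a tankyrase that marks Axin for degradation, had 70.8, 67.5 and 69.8 CPM in wild-type and 52.3, 59.5 and 54.4 CPM in IL-21isoTg MECs (log2 fold change -0.32, unadjusted p = 0.0429). The unadjusted p was under 0.05 in 13 of 17 alternatives for Ccnd1 and for Cthrc1, but in only 6 of 17 for Tnks. For Cthrc1 and Tnks no transgenic mouse reached the wild-type range. Ctnnb1, which encodes β-catenin itself, had 475, 514 and 497 CPM in wild-type and 412, 470 and 420 CPM in IL-21isoTg MECs (log2 fold change -0.19, 95% interval -0.58 to 0.20). Of the receptors and scaffolds of the non-canonical branch, 9 of 10 had a negative log2 fold change, between -0.32 and 0.0004, with no unadjusted p under 0.05. The secretion factor Wls was at 74.9 to 105 CPM and the acyltransferase Porcn at 8.15 to 13.0 CPM over all mice. Among the nuclear factors, Tcf7l2 was at 25.8 to 70.8 CPM and Lef1 at 0.384 to 1.31 CPM.

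**Figure D5:**
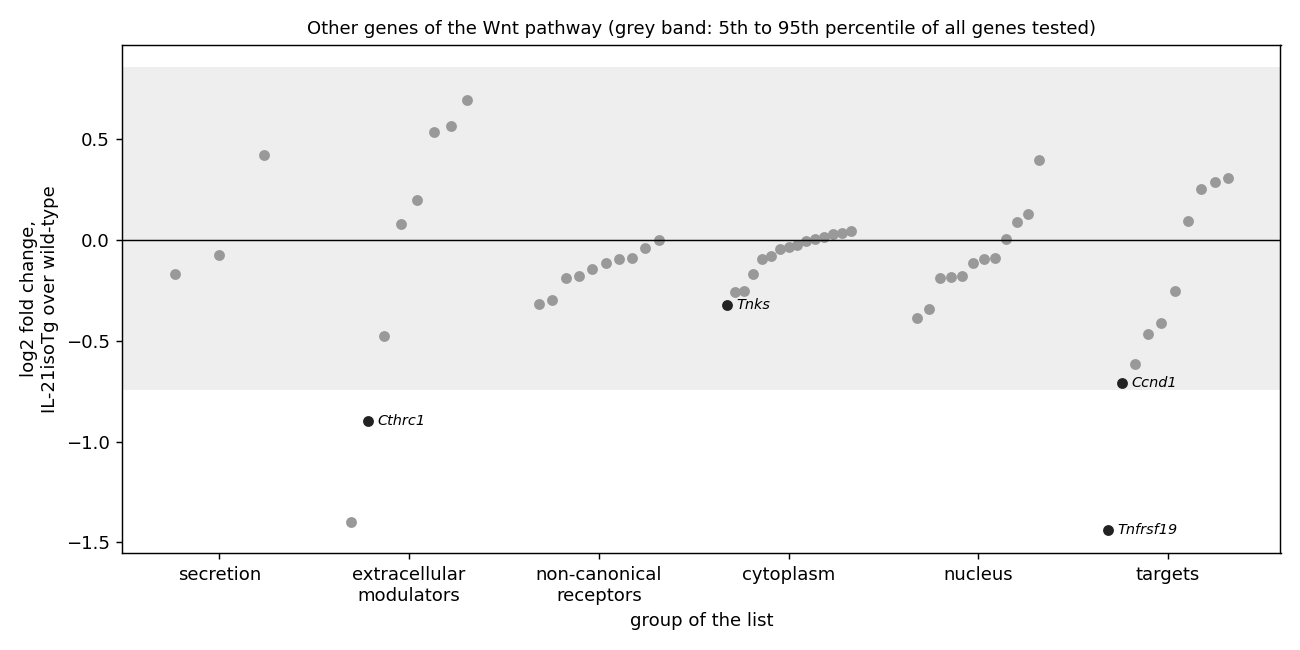
Log2 fold change (IL-21isoTg over wild-type) of the 58 other pathway genes tested, by group of the list; black points with names have an unadjusted p under 0.05 and the grey band is the 5th to 95th percentile of all genes. The 4 named genes, Tnfrsf19, Ccnd1, Cthrc1 and Tnks, all lie below 0, and 38 of the 58 points do.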

How the data were processed

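Libraries were made from MEC RNA with a directional poly(A) kit, 1 per mouse, from 3 wild-type and 3 IL-21isoTg mice, grouped by the sample labels. The authors deposited read counts per gene without normalization. Their processing notes name FastQC 0.11.7, Trimmomatic 0.38, HISAT2 2.1.0, SAMtools 1.9, featureCounts 1.6.3, DESeq2 1.24.0 and the build mm10; the annotation and the strand setting are not given in the sources used here. Their normalized values and their own fold changes and p-values were not used.

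From the counts, genes were filtered with filterByExpr (minimum count 10, minimum total 15), scaled with TMM and compared with edgeR 4.0.16 (quasi-likelihood test, robust, genotype as the only term), with Benjamini-Hochberg adjustment over 17165 genes. The standard error is the absolute log2 fold change over the square root of F, and 95% intervals used the t distribution with the total degrees of freedom. DESeq2 1.42.0 and limma 3.58.1 in R 4.3.3 were alternatives. Positions and exon lengths came from GENCODE M21 (GRCm38). Members, lists and named genes (fixed members, and others with an unadjusted p under 0.05 or groups that did not overlap) were chosen with earlier results of these data known. Nothing states that the mice of a group were littermates or of separate litters, and p-values measure the spread between 3 mice. Alternatives were other scalings, filters, tests and covariates, a replicate block and leaving out mice.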

Additional observations from a re-analysis of the deposited data

How the results depend on the processing

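No Wnt pathway gene passed the adjusted threshold under any of 17 alternatives. The count of members at an unadjusted p under 0.05 and lower in IL-21isoTg MECs was 1 as reported. It was 0 with DESeq2 size factors, without salivary gland genes, with their level as a covariate, and without both libraries that stood apart. In these fits 2.3% to 3.51% of all genes were lower. The count was 2 with no filter (4.08%, against 1.96% of all genes) and with DESeq2 (4.08%, against 1.75%). It was 3 with the replicate block (7.5%, against 1.47%). The count higher, also 1, was 3 with the salivary covariate (7.5%, against 3.64%), with no filter (6.12%, against 2.5%) and without both libraries (7.5%, against 4.93%). Members higher without overlap, 3 as reported, were 5 with no filter (10.2%, against 3.94%) and with DESeq2 (10.2%, against 4.1%). Without both libraries 9 were higher (22.5%, against 19.6%) and 5 lower (12.5%, against 20.7%). The median log2 fold change of -0.10 was 0.038 with the salivary covariate and 0.031 with limma-voom. The pathway list had 9 genes at an unadjusted p under 0.05 without both libraries, against 4 as reported. Of all genes, 8.45% were under 0.05 without both libraries, against 5.82% with all mice. Leaving out 1 mouse gave 1 to 6 members higher at an unadjusted p under 0.05 (6, or 15%, without wild-type mouse 2, against 3.78% of all genes). Those lower were 0 to 5 (5, or 12.5%, without IL-21isoTg mouse 2, against 3.77%). Without overlap, 3 to 11 were higher (11, or 27.5%, without wild-type mouse 2, against 10.7%) and 3 to 8 lower (8, or 20%, without IL-21isoTg mouse 2, against 15%). The median was -0.19 to 0.17. Pathway genes under 0.05 were 1 to 6, with 1 without IL-21isoTg mouse 1, where 3.04% of all genes were under 0.05. Log2 fold changes that changed sign were Wnt5a (0.15 with the salivary covariate, 0.11 with limma-voom, 0.024 with the replicate block), Fzd1 (0.069 with the covariate, 0.0065 with limma-voom, and 0.12 without both libraries), Lrp5 (0.037 with the covariate), and, without both libraries, Wnt5b (0.077), Wnt6 (0.65) and Wnt10a (0.077). With 1 mouse left out, signs changed for Wnt5a (-0.77 to 0.28), Wnt5b (-0.39 to 0.10), Wnt6 (-0.80 to 0.35), Wnt10a (-0.69 to 0.11), Wnt11 (-0.16 to 0.28), Wnt2b (-0.33 to 0.28), Fzd1 (-0.21 to 0.18), Lrp5 (-0.50 to 0.18), Lgr5 (-0.22 to 0.041), Sfrp2 (-0.13 to 0.46) and Tcf7 (-0.89 to 0.046). The causes were not tested. No pairing of mice by replicate number was seen. Deviations from the group means correlated at -0.22, 0.07 and -0.06 between mice of the same number. Between mice of different numbers they correlated at -0.23 to 0.23. With 3 mice per genotype these values cannot exclude a pairing. With 3 mice per genotype and 15902886 to 25719244 counts per library, ligands under about 1 CPM had intervals more than 2 log2 units wide. Intervals were also that wide for Wnt2 (-0.16 to 2.00), Wnt9a (-0.23 to 1.88), Wnt5a (-1.87 to 1.30) and Wnt6 (-1.83 to 0.92), which had higher levels.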
